A study of Rattus norvegicus with 12 samples.

Results

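Liver makes most of the complement and coagulation proteins of plasma, and the transcripts of 37 such proteins were followed in rat liver. These were 17 coagulation genes and 20 complement genes, taken from the 16558 genes of the count tables by a list of names and not by a threshold on measured values, and all 37 names were found there. RNA from the liver of Sprague Dawley rats, an outbred stock, was sequenced in 12 libraries, 3 in each of 4 groups. Rats of arm G and arm D were fed a high-fat diet and treated with didymin, a flavonoid glycoside of citrus fruit, at 2 different doses. Model rats were fed that diet for 8 weeks without didymin, as a model of non-alcoholic fatty liver disease. Normal rats were given saline, and the labels call them wt and give no diet for them. The labels speak of a low and a high dose without amounts, and none says which of the letters G and D is which, so no dose is set beside either arm. The labels give no age or sex.

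Coagulation is a chain of serine proteases that circulate as inactive precursors, each cutting the next one until thrombin turns fibrinogen into fibrin. Inhibitors such as antithrombin hold the chain in check, and plasmin later dissolves the clot. Complement is a related chain of proteases and binding proteins. Its classical, lectin and alternative routes meet in the cleavage of C3 and end in a pore that the terminal components build in the membrane of a microbe. Hepatocytes are the main source of nearly all of these proteins, and signals of inflammation raise many of them as part of the acute phase response.

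Expression is given as CPM, the read count of a gene scaled to a common library size by TMM, and values of a group follow the order of the library names, which are G.1, G.3 and G.4, then D.1, D.4 and D.7, then M.5, M.6 and M2.1 of the model, then N.1, N.2 and N.3 of the normal rats. Total counts per library ran from 12469914 to 15521648, the lowest count of any of the 37 genes in a library was 15, and all 37 passed the filter on low counts. The libraries differed in the share of their counts that came from the 13 genes of the mitochondrial genome. It was 61.0% in G.3 and 44.1% in M.6, 18.8% in M.5, 16.0% in D.1, 11.2% in N.3, and between 3.85% and 7.88% in the other 7 libraries. All 12 hepatocyte markers, among them albumin, were detected in every library, with summed levels of 45570 to 166214 CPM in arm G, 145743 to 155289 in arm D, 74848 to 155292 in the model and 156501 to 194409 in the normal group. The lowest sums of arm G and of the model belong to G.3 and M.6, with mean hepatocyte marker levels of 10.47 and 10.95 log2 CPM, where the other 10 libraries had 11.66 to 11.96. A high mitochondrial share can be a sign of poor RNA or tissue quality. In bulk liver, poor quality, fewer hepatocytes and less RNA per hepatocyte cannot be told apart. Since the labels do not name the animal behind each library, the spread that the p-values rest on is one between libraries.

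Both lists of genes followed much the same order over the libraries. The mean of the 17 coagulation genes was 9.34, 7.99 and 9.39 log2 CPM in arm G, 8.85, 9.17 and 9.15 in arm D, 8.90, 8.18 and 8.89 in the model and 9.35, 9.27 and 9.22 in the normal group. The mean of the 20 complement genes was 8.82, 7.68 and 9.0 log2 CPM in arm G, 8.47, 8.88 and 8.75 in arm D, 8.39, 7.71 and 8.61 in the model and 9.02, 8.88 and 8.67 in the normal group. In both lists all 3 model libraries lay below all 3 normal libraries, while G.1, G.4, D.4 and D.7 lay above all 3 model libraries and G.3 lay below them. The model library M2.1 had a mitochondrial share of 4.90%, and N.1 one of 4.63%. The lowest normal means were those of N.3. M2.1 had 8.89 beside 9.22 in N.3 for the coagulation genes, and 8.61 beside 8.67 for the complement genes. The part of the mitochondrial share in these means was not tested. Between them the 37 genes took 3.45% to 5.32% of the counts of nuclear genes in arm G, 3.76% to 5.32% in arm D, 3.19% to 4.50% in the model and 4.56% to 5.64% in the normal group. Of the 37 genes, 19 had their lowest value of all 12 libraries in G.3, 9 in M.6 and 6 in M2.1, and 13 had their highest value in N.1. These positions were not counted over all tested genes, so they are not a trait of the 37 genes.

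**Figure D1:**
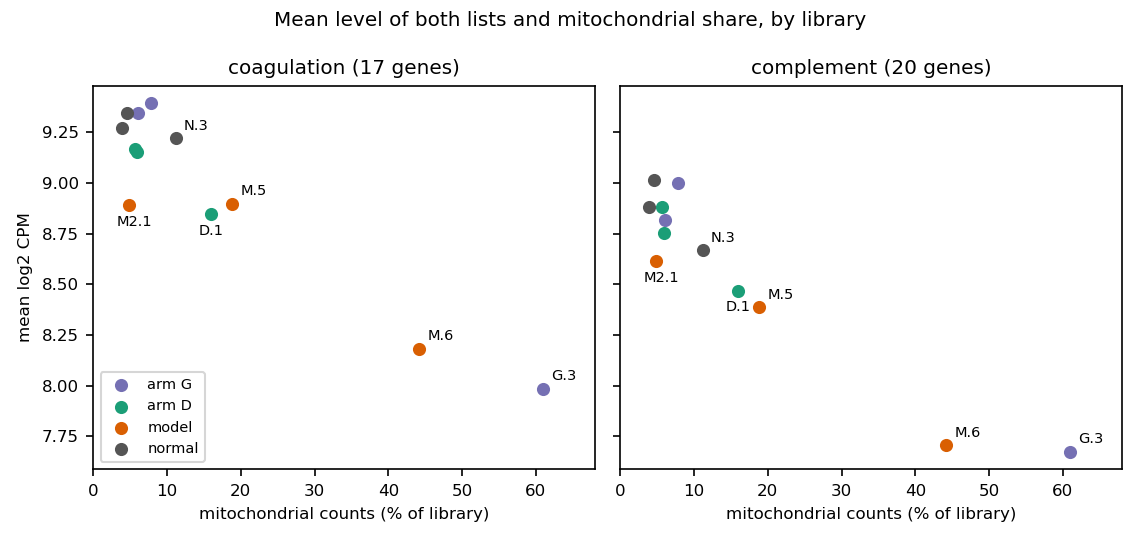
Mean log2 CPM of the 17 coagulation genes (left) and 20 complement genes (right) against the share of mitochondrial counts, with 1 point for each of 12 libraries. G.3 and M.6, with mitochondrial shares of 61.0% and 44.1%, have the lowest means in both panels. M2.1, at a share of 4.90%, lies below the normal libraries, in the right panel only just below N.3.

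The stretch just before the transcription start holds many of the elements through which liver factors act, so the promoters of the 37 genes were searched for short letter patterns of such factors, on both strands. The patterns were chosen with these matches in view. RefSeq promoters of the assembly GRCr8, from 250 bases before to 50 bases after the start, were found for 28 of the 37 genes. The letters TTAATNATT, part of the pattern of hepatocyte nuclear factor 1, stood in 4 of these 28 promoters (14.3%) and in 1.49% of all 33469 promoters. The 4 were those of Plg, F13b and Serpinc1 among the coagulation genes and C5 among the complement genes, and they are shown here because the pattern crosses from one cascade to the other. Each is given 5′ to 3′ on the strand of its gene with 20 bases on either side of the match, and capitals mark the match, which reads as the reverse complement in 3 of them.
Plg, chr1:50915449-50915497 on the minus strand: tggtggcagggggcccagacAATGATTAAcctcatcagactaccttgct
F13b, chr13:53681556-53681604 on the plus strand: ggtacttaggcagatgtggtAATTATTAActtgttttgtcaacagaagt
Serpinc1, chr13:75790408-75790456 on the plus strand: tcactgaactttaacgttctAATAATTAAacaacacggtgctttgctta
C5, chr3:38759476-38759524 on the minus strand: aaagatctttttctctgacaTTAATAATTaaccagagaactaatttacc
The first base of the match lay 71 bases before the start in Plg, 63 in F13b, 130 in Serpinc1 and 36 in C5. The letters TTGCNNAA of the C/EBP pattern stood in 10 of the 28 promoters (35.7%) and in 10.6% of all promoters, and these were the promoters of F9, Klkb1, Kng1 and Serpinc1 and of C1r, C3, C4bpa, C6, C8a and C8b. The letters TTCCNGGAA of STAT factors stood in 1 of the 28, that of Pros1, and in 1.27% of all promoters, and CAAAGTCCA of hepatocyte nuclear factor 4 stood in 0 of the 28 and in 0.391% of all. The 10 genes with the C/EBP letters hold members of both cascades, and a match describes letters only.

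What the high-fat diet changes in these genes was asked by setting the model against the normal group. Nearly all of them had lower values in the model: 17 of 17 coagulation genes and 19 of 20 complement genes had a negative log2 fold change, where 47.4% of the 12355 tested genes had one. The median log2 fold change was −0.53 for the coagulation genes and −0.53 for the complement genes, beside 0.03 for all tested genes. In the quasi-likelihood test of edgeR none of the 37 had an adjusted p under 0.05, as had 0% of all genes, and their smallest adjusted p was 0.866. At an unadjusted p under 0.05 there was 1 lower member, F7, and 1.9% of all genes. Both that count and the share of all genes at that level changed with the library left out, and not always in the same direction. They were 8 members beside 3.5% without G.3, 6 beside 11.3% without M2.1, 2 beside 1.73% without G.4 and 0 beside 0.911% without N.2. DESeq2 gave 5 lower members beside 2.48% of all genes and limma-voom 1 beside 2.34%, and neither called a member after adjustment, although DESeq2 called 41 other genes. The model libraries lay below all normal libraries in 5 coagulation genes and 7 complement genes, 12 of 37, where 5.29% of all genes did so.

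Among the vitamin K dependent proteins, which need a carboxylated domain to bind membranes, the model had lower means in 6 of 6. F2, the precursor of thrombin, was at 2103, 1071 and 2099.6 CPM in the model and 2823, 2603 and 2911 CPM in the normal group. The groups did not overlap, and M.6 was the lowest of the model. The log2 fold change of F2 was −0.66 ± 0.49 (SE), with an edgeR adjusted p of 0.866. F7, the protease that starts clotting together with tissue factor, was at 57.8, 61.5 and 45.0 CPM in the model and 73.2, 108 and 75.7 CPM in the normal group. Here M2.1 and not M.6 was the lowest of the model libraries, all of which lay below the normal ones. F7 had a log2 fold change of −0.65 ± 0.25 with an unadjusted p of 0.0212 and an edgeR adjusted p of 0.866. F9, the protease that activates factor X, averaged 553 ± 255 CPM in the model and 886 ± 130.2 CPM in the normal group (SD, n = 3). F10, the protease that makes thrombin, averaged 439 ± 123 CPM in the model and 568 ± 81.1 CPM in the normal group, and both genes overlapped between the groups. Proc, the precursor of the anticoagulant protein C, was at 747, 638 and 451 CPM in the model and 539, 549.9 and 818 CPM in the normal group, and the groups overlapped over most of their range. Pros1, the cofactor of protein C, was at 231, 143 and 258 CPM in the model and 298, 276 and 288 CPM in the normal group, with all model libraries below all normal ones.

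The contact system, which starts clotting from negatively charged surfaces and releases bradykinin, was lower in the model in 4 of 4 members by its means. Kng1, the precursor of bradykinin, was at 1004, 812 and 804 CPM in the model and 1801, 2127 and 1505 CPM in the normal group. The 3 model libraries lay close together and far below the normal ones, M2.1 included. Kng1 had the lowest fold change of the 17 coagulation genes, a log2 value of −1.05 ± 0.50, with an edgeR adjusted p of 0.866. Kng1 is also an older name of Kng2 and of Kng2l1 in RefSeq, and the tables do not list these as genes of their own, so its values may hold reads of several kininogen genes. Klkb1, plasma prekallikrein, was at 249, 195 and 246 CPM in the model and 381, 327 and 339 CPM in the normal group. Its groups did not overlap, at a log2 fold change of −0.60 ± 0.30 and an edgeR adjusted p of 0.866. F11, which activates factor IX, was at 298, 253 and 159 CPM in the model and 304, 262 and 368 CPM in the normal group. F12, which activates prekallikrein and factor XI, was at 892, 727 and 697 CPM in the model and 977, 795 and 1077 CPM in the normal group. Both overlapped between the groups, and M2.1 had the lowest model value in both.

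The remaining coagulation genes had lower means in the model too, with wide spread. Serpinc1, which encodes antithrombin, was at 2615, 1560.3 and 1587 CPM in the model and 2403, 2361 and 2838 CPM in the normal group. M.5 lay among the normal libraries and M.6 and M2.1 well below them, and the log2 fold change was −0.40 ± 0.42 with an edgeR adjusted p of 0.872. Plg, the precursor of plasmin, was at 1717, 568 and 3024 CPM in the model and 3808, 3619 and 2339.9 CPM in the normal group. M2.1 stood above N.3 and M.6 far below every normal library, so that the log2 fold change of −0.88 ± 0.64 came with an edgeR adjusted p of 0.866, and it was −1.52 without M2.1 and −0.46 without M.6. F5, the cofactor of the complex that makes thrombin, had a mean of 119.6 ± 109 CPM in the model and 204 ± 88.6 CPM in the normal group (SD, n = 3). Cpb2, a carboxypeptidase that slows fibrinolysis, was at 530.0, 293 and 428 CPM in the model and 525, 514 and 725 CPM in the normal group, overlapping by M.5 alone. F13b, the carrier subunit of the enzyme that crosslinks fibrin, averaged 200.2 ± 86.0 CPM in the model and 254 ± 17.1 CPM in the normal group (SD, n = 3). Serpind1, heparin cofactor II and an inhibitor of thrombin, averaged 388 ± 239.7 CPM in the model and 613 ± 123 CPM in the normal group. Serpinf2, the main inhibitor of plasmin, averaged 417 ± 137 CPM in the model and 602 ± 142 CPM in the normal group. All 3 overlapped between the groups.

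**Figure D2:**
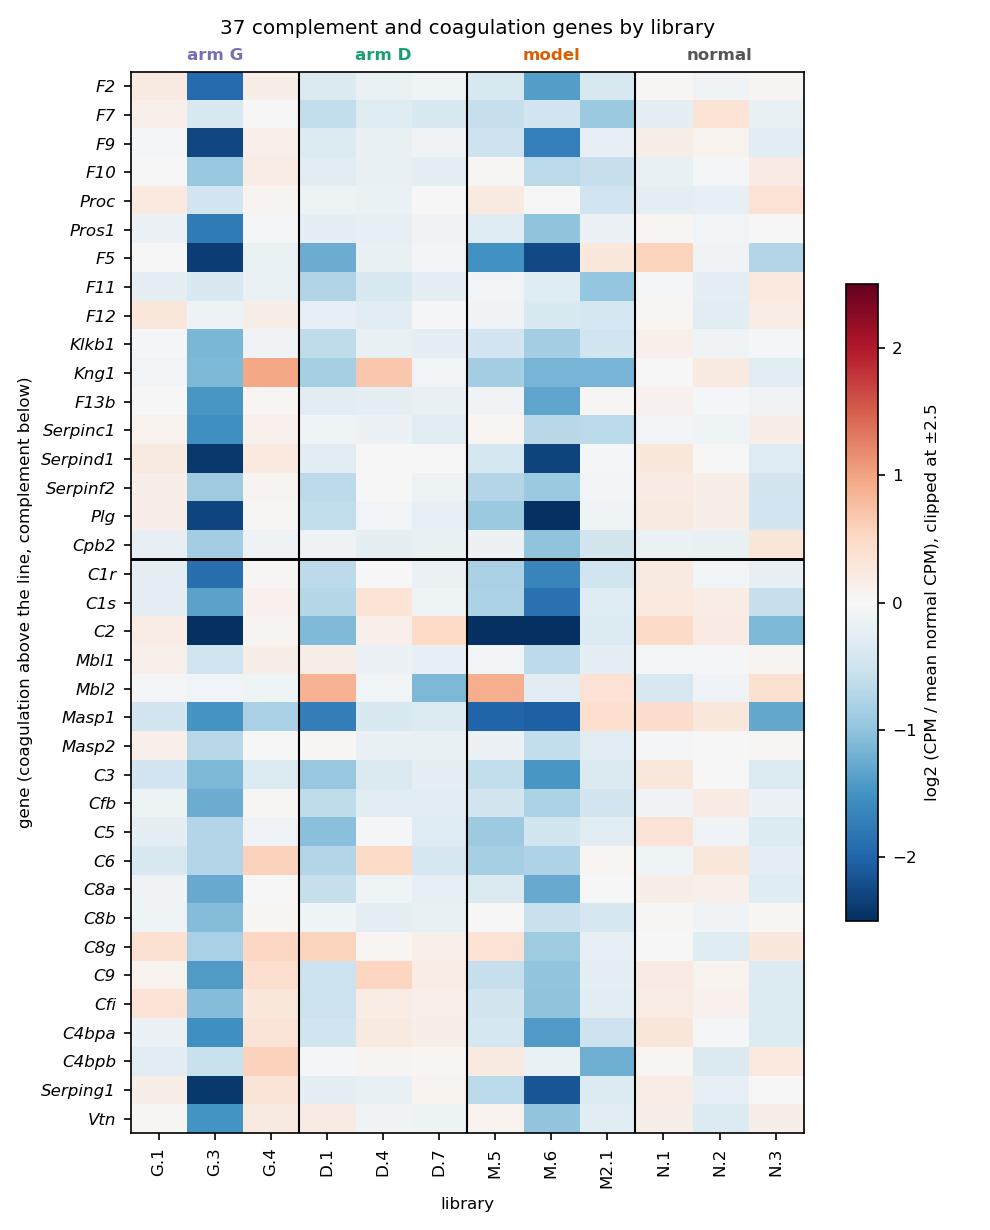
Log2 ratio of each gene's CPM in each library to its mean in the 3 normal libraries, clipped at ±2.5, for 17 coagulation genes above the line and 20 complement genes below it. Columns G.3 and M.6 are the darkest blue over most genes. Columns M.5 and M2.1 are mostly pale blue, with darker blue for C2 and Masp1 in M.5 and red for Mbl2 in both.

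Among the complement genes, the classical route had the lowest values in the model, with a median log2 fold change of −0.91 over its 3 members. C1r, a protease of the first component, was at 575, 319.5 and 710.5 CPM in the model and 1181, 966 and 875 CPM in the normal group. All model libraries lay below all normal ones, at a log2 fold change of −0.91 ± 0.46 and an edgeR adjusted p of 0.866. C1s, the protease that C1r activates, was at 406, 194 and 564 CPM in the model and 839, 806 and 470.2 CPM in the normal group, where M2.1 overlapped with N.3. C2, which supplies the protease of the C3 convertase, was at 3.16, 1.35 and 14.1 CPM in the model and 24.8, 20.4 and 8.13 CPM in the normal group. M2.1 lay above N.3, and the largest fold change of the 37 genes, a log2 value of −1.50 ± 0.84, had the largest error among them and an edgeR adjusted p of 0.866. Without M2.1 it was −2.98.

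The lectin route recognises sugars on microbes, and its members did not go one way. Mbl1, the mannose-binding lectin A of rat, was at 168, 111 and 148 CPM in the model and 171, 171 and 184 CPM in the normal group. The normal libraries lay within a narrow range above all model libraries, at a log2 fold change of −0.30 ± 0.26 and an edgeR adjusted p of 0.866. Mbl2, the mannose-binding lectin C, was at 9.40, 4.14 and 6.40 CPM in the model and 3.78, 4.69 and 6.56 CPM in the normal group. It was the 1 gene of the 37 with a positive value, 0.41 ± 0.46 on the log2 scale, and its groups overlapped (edgeR adjusted p = 0.875). Masp1, a protease that binds these lectins, was at 20.6, 19.8 and 109 CPM in the model and 112, 100.4 and 33.9 CPM in the normal group. M2.1 had the second highest value of all libraries, and M.5 and M.6 had the lowest. Masp2, the protease that cleaves C4 and C2, had a mean of 197 ± 32.0 CPM in the model and 249 ± 5.16 CPM in the normal group (SD, n = 3), without overlap.

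C3, on which the 3 routes meet, was at 8748, 4911 and 10484 CPM in the model and 16249, 13485 and 10539.7 CPM in the normal group. M2.1 lay just under N.3 and the groups did not overlap, at a log2 fold change of −0.74 ± 0.44 and an edgeR adjusted p of 0.866. Cfb, factor B of the alternative route, was at 1729, 1373 and 1704 CPM in the model and 2258, 2739 and 2156 CPM in the normal group. Its groups did not overlap either, at a log2 fold change of −0.57 ± 0.36 and an edgeR adjusted p of 0.866. The 6 terminal components all had lower means in the model, at a median log2 value of −0.45, and none of the 6 was without overlap. C9, which lines the pore, was at 782, 586 and 999 CPM in the model and 1339, 1241 and 918 CPM in the normal group. M2.1 lay above N.3, and the log2 fold change was −0.56 ± 0.45 with an edgeR adjusted p of 0.866. C5, whose cleavage opens the terminal route, averaged 547 ± 115 CPM in the model and 787 ± 191 CPM in the normal group (SD, n = 3). C6, which joins it next, averaged 115 ± 42.3 CPM in the model and 158 ± 29.0 CPM in the normal group. The chains C8a and C8b of the eighth component had log2 fold changes of −0.44 ± 0.40 and −0.30 ± 0.31. C8g, its gamma chain, had the smallest difference of the 6, with a mean of 227 ± 94.0 CPM in the model and 251 ± 49.3 CPM in the normal group (SD, n = 3). Of the regulators, Serping1, the inhibitor of C1r, C1s and plasma kallikrein, and C4bpa, the alpha chain of the C4b-binding protein, had no overlap. Serping1 averaged 536 ± 285 CPM in the model and 979.7 ± 132 CPM in the normal group, and C4bpa 522 ± 172 CPM in the model and 864 ± 188 CPM in the normal group (SD, n = 3). The other 3 regulators overlapped between the groups. Cfi, which degrades C3b and C4b, averaged 824 ± 206 CPM in the model and 1196 ± 218 CPM in the normal group. C4bpb, the beta chain, averaged 446 ± 199.6 CPM in the model and 539 ± 112 CPM in the normal group. Vtn, vitronectin, which binds unfinished pores, averaged 3462 ± 1227 CPM in the model and 4346 ± 802 CPM in the normal group.

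The size of the difference moved with M.6. Without that library the median log2 fold change was −0.35 for the coagulation genes and −0.35 for the complement genes, with 17 of 17 and 18 of 20 negative, and with the mitochondrial share as a covariate it was −0.23 and −0.18. Hepatocyte markers had 11 of 12 negative values with a median of −0.36 and no called gene. Among all tested genes 47.4% had negative values and 5.29% lay below all normal libraries. Of 12 acute phase proteins, 11 were tested and all 11 had negative values, with a median of −0.71 and no overlap in 9. Their summed levels were 21649 to 36352 CPM in the model and 43751 to 50415 CPM in the normal group, with A1bg at 0 in some library. Markers of other liver cells did not all go one way. Kupffer cell markers were negative in 12 of 12 with a median of −0.58, and sinusoidal endothelium in 6 of 8 with a median of −0.42. Stellate cell markers were negative in 5 of 7 with a median of −0.13. Cholangiocyte markers were positive in 4 of 5 with a median of 0.42. Positive values were found for 7 of 7 T and NK cell markers, 5 of 5 of B and plasma cells, 4 of 4 of neutrophils and 3 of 3 erythroid ones, with medians of 0.44, 0.51, 1.16 and 1.09. Of the 12355 tested genes 6493 were positive. The model library M2.1 did not stand out here. Its means for T and NK, B and plasma and erythroid markers, −0.455, −0.102 and 5.044 log2 CPM, lay within the range of the normal libraries. Its neutrophil mean, −1.476, lay below that range. None of these markers passed after adjustment, and the part of these lists in the values of the 37 genes was not tested.

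**Figure D3:**
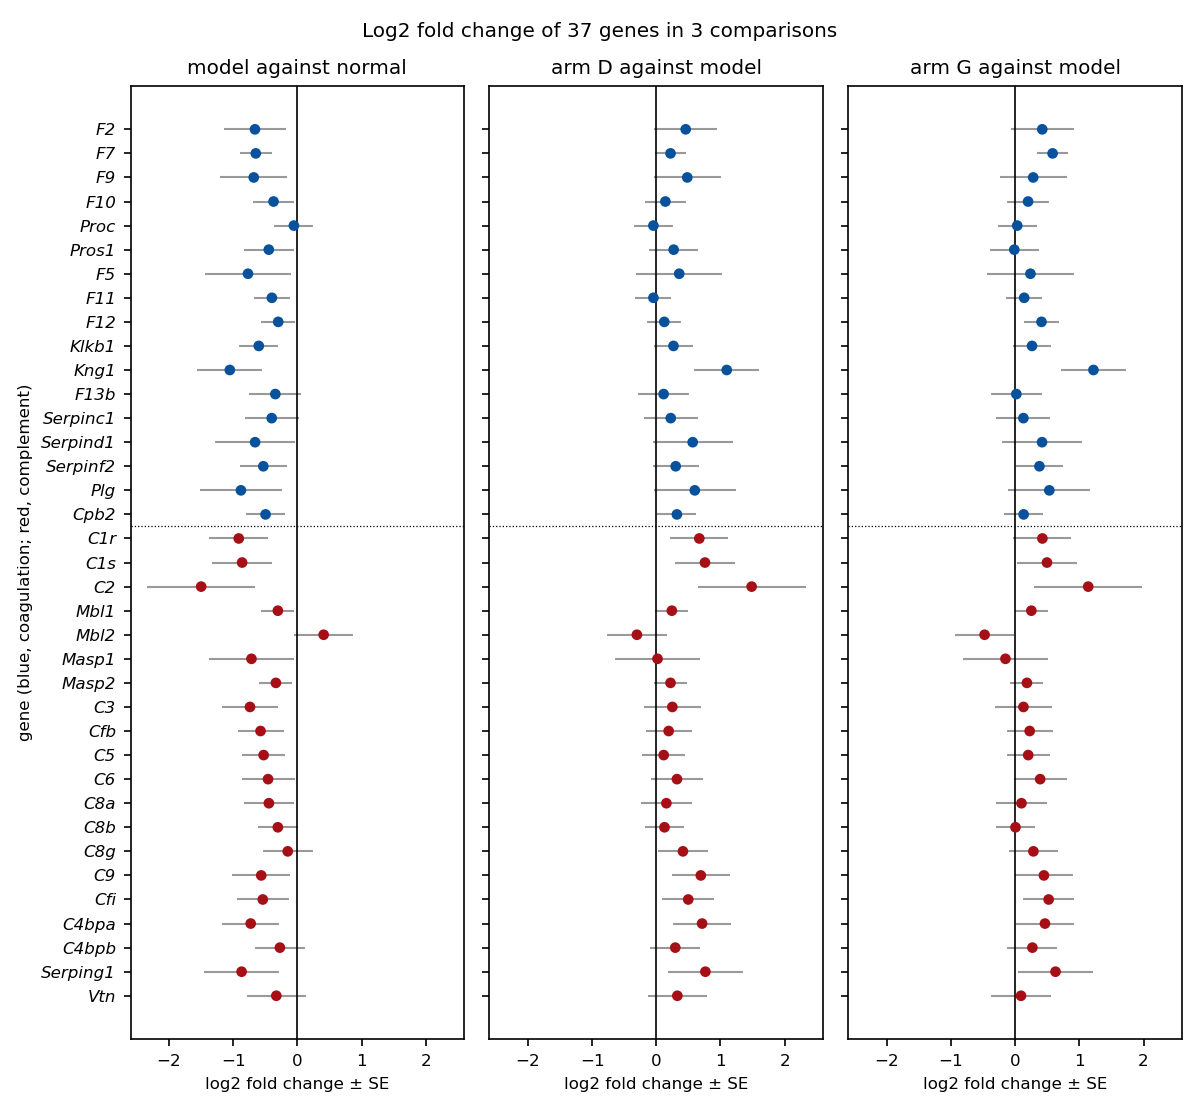
Log2 fold change with its standard error for each of 37 genes in 3 comparisons, coagulation genes in blue and complement genes in red. In model against normal all points but that of Mbl2 lie left of 0, and in each arm against the model most lie right of 0.

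Each arm was set against the model to ask what didymin did on the high-fat diet, and both comparisons use the same 3 model libraries, as does model against normal, so their values are given side by side and are not separate evidence. Against the model, arm G had a positive log2 fold change in 16 of 17 coagulation genes and 18 of 20 complement genes, where 50% of all genes had one, with medians of 0.26 and 0.26 beside 0.00 for all genes. Arm D had a positive value in 15 of 17 coagulation genes and 19 of 20 complement genes, where 46.7% of all genes had one, with medians of 0.27 and 0.31 beside −0.04. None passed an adjusted p of 0.05 in edgeR in either comparison, in each of which 0% of all genes passed, and the smallest adjusted p of a member was 0.9997 for arm G and 0.788 for arm D. At an unadjusted p under 0.05 arm G had 2 higher members, where 1.2% of all genes were, and arm D had 1, where 3.04% were. For arm G, DESeq2 gave 2 beside 1.64% of all genes, limma-voom gave 1 beside 1.02%, limma-voom with sample quality weights 13 beside 6.03%, and the mitochondrial share as a covariate 7 beside 2.4%. For arm D these were 1 beside 3.66%, 0 beside 3.12%, 12 beside 9.53% and 1 beside 4.65%. None of these settings called a member after adjustment. Arm G lay above all model libraries in 1 member, where 2.61% of all genes did, and arm D in 3, where 5.93% did.

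Kng1 had an unadjusted p under 0.05 in both arms. It was at 1727, 832 and 3544 CPM in arm G and 1012, 2876 and 1721 CPM in arm D, against 1004, 812 and 804 CPM in the model. In arm G, G.4 was the highest of all 12 libraries and G.3 lay among the model ones. In arm D all 3 libraries lay above the model, though D.1 only just. The log2 fold change of Kng1 was 1.22 ± 0.51 in arm G and 1.10 ± 0.51 in arm D, with unadjusted p of 0.0325 and 0.0499 and edgeR adjusted p of 0.9997 and 0.788. Without G.4 the value for arm G was 0.54, and without D.4 that for arm D was 0.65.

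F7 was the other member for arm G, at 94.2, 65.9 and 85.8 CPM, against 57.8, 61.5 and 45.0 CPM in the model. All 3 libraries of arm G, G.3 included, lay above all model libraries, and G.1 and G.4 lay within the range of the normal group. Its log2 fold change was 0.58 ± 0.25, with an unadjusted p of 0.0346 and an edgeR adjusted p of 0.9997. In arm D, F7 was at 56.1, 69.4 and 66.0 CPM, overlapping with the model. F12 was at 1159, 865 and 1054 CPM in arm G and 822, 781 and 922 CPM in arm D, against 892, 727 and 697 CPM in the model. G.3 lay just below M.5, and the log2 fold change in arm G was 0.41 ± 0.27 (edgeR adjusted p = 0.9997).

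Of the other coagulation genes, F2 was at 3248, 727 and 3089 CPM in arm G and 2166, 2491 and 2592 CPM in arm D, against 2103, 1071 and 2099.6 CPM in the model. Arm D lay just above the model without overlap, while in arm G G.1 and G.4 were above every other library and G.3 was below every one. Serpinc1 was at 2685, 877 and 2735 CPM in arm G and 2345, 2302 and 2091 CPM in arm D, inside or close to the range of the model apart from G.3. Plg was at 3673, 668 and 3335 CPM in arm G and 2112, 3096 and 2842 CPM in arm D, and in both arms all libraries but G.3 lay above M.5 and M.6. Pros1 was at 260.0, 84.7 and 282 CPM in arm G and 244, 250.5 and 269 CPM in arm D, with G.3 the lowest of all 12. Its log2 fold change in arm G, −0.01 ± 0.38, had no fixed sign over the alternatives tried. F11 was at 263, 240.2 and 279 CPM in arm G and 184, 240.1 and 264 CPM in arm D. Proc was at 754, 456 and 667 CPM in arm G and 584, 568 and 628 CPM in arm D. These were the 2 coagulation genes with a negative value in arm D, at −0.04 ± 0.28 and −0.04 ± 0.30, both within their errors of 0 and both overlapping with the model. Cpb2 was at 507, 324 and 539.6 CPM in arm G and 542, 503 and 519 CPM in arm D, and 2 of the 3 arm D libraries lay within the model's range.

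In the complement list the classical route had the highest medians against the model, 0.50 in arm G and 0.76 in arm D over 3 genes. C2 was at 20.1, 2.50 and 18.7 CPM in arm G and 8.23, 19.4 and 25.3 CPM in arm D, against 3.16, 1.35 and 14.1 CPM in the model. M2.1 overlapped with both arms, and the log2 fold change in arm D was 1.49 ± 0.84 (edgeR adjusted p = 0.801), or 2.96 without M2.1. C1s was at 599, 279 and 763 CPM in arm G and 428, 888 and 655 CPM in arm D, with D.4 the highest of all 12 libraries, and its log2 fold change in arm D was 0.76 ± 0.47 (edgeR adjusted p = 0.802). C1r was at 854, 273 and 1026 CPM in arm G and 641, 1015 and 899 CPM in arm D, where all but G.3 and D.1 lay above the model. Serping1 was the 1 complement gene whose arm D libraries all lay above the model, at 824, 865 and 1046 CPM against 611, 221 and 777 CPM. C9 was at 1239, 439.5 and 1549.8 CPM in arm G and 806, 1699 and 1325 CPM in arm D, where D.4 was the highest of all 12 libraries. C3 was at 9622, 6127 and 10654 CPM in arm G and 6919, 10442 and 11362 CPM in arm D, with G.3 above M.6. Cfb was at 2180.0, 1007 and 2433 CPM in arm G and 1530.1, 1975 and 1989 CPM in arm D, with G.3 the lowest of all. All 3 overlapped with the model in both arms.

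Within the complement list the lectin route again held the exceptions. Mbl1 was at 191, 124 and 194 CPM in arm G and 194, 159 and 152 CPM in arm D, overlapping with the model. Mbl2 was at 4.92, 4.76 and 4.64 CPM in arm G and 9.15, 4.76 and 2.30 CPM in arm D. The 3 libraries of arm G lay close together, while those of arm D spanned a wider range than any other group. Its log2 fold change was −0.48 ± 0.46 in arm G and −0.30 ± 0.46 in arm D, the 1 complement gene with a negative value in both (edgeR adjusted p = 0.9997 and 0.916). Masp1 was at 58.7, 29.4 and 46.6 CPM in arm G and 24.7, 62.5 and 64.6 CPM in arm D, all of them between M.5 and M2.1. Its log2 fold change in arm G was −0.15 ± 0.66, and its sign turned without M2.1 and under other settings.

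**Figure D4:**
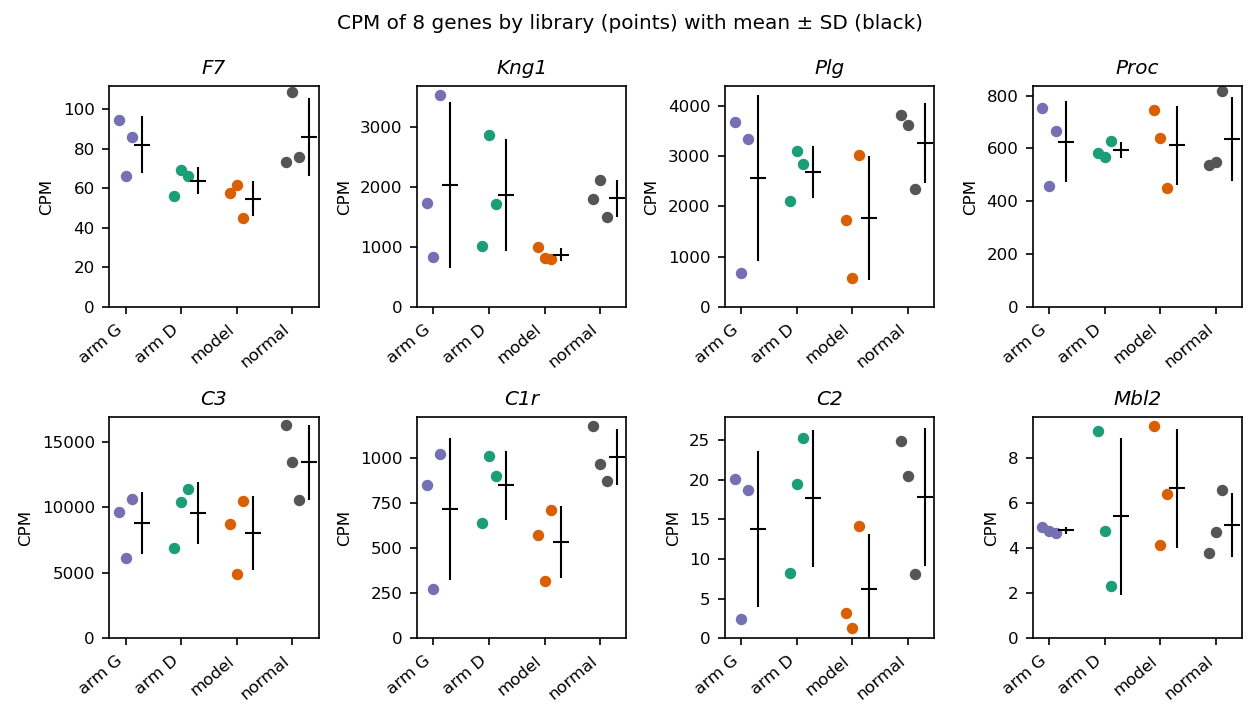
CPM of 8 genes in each of 12 libraries (points, in the order of the library names) with the mean and SD of 3 libraries beside them, each panel on its own scale from 0. F7 and Kng1 show a narrow, low model group, C1r and C3 a model group below the normal one, and Plg, C2 and arm G of Kng1 a spread wider than the distance between groups.

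Single libraries moved these medians. In arm G against the model the coagulation and complement medians were 0.55 and 0.52 without G.3, 0.07 and 0.14 without M.6, 0.08 and 0.04 without G.4, and 0.09 and 0.16 without G.1. At an unadjusted p under 0.05 there were 9 higher members beside 2.76% of all genes without G.3, 1 beside 1.5% without M.6, 0 beside 1.56% without G.4, 1 beside 1.72% without G.1, 0 beside 1.15% without M.5 and 1 beside 4.29% without M2.1. In arm D against the model they were 0.12 and 0.15 without M.6 and 0.35 and 0.48 without M2.1, and 0.04 and 0.10 with the mitochondrial share as a covariate. The count of higher members at an unadjusted p under 0.05 was 4 beside 5.26% of all genes without G.3, 4 beside 7.39% without M2.1, 1 without D.1 or G.4 and 0 without any other single library, where the shares of all genes ran from 1.26% to 3.89%. Hepatocyte markers were positive against the model in 6 of 12 in arm G and 9 of 12 in arm D, with medians of −0.03 and 0.23, and acute phase proteins in 11 of 11 in both, with medians of 0.42 and 0.64. The summed acute phase levels were 16256 to 57527 CPM in arm G and 32686 to 48065 CPM in arm D. Their part in the values of the 37 genes was not tested.

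Set against the normal group, arm G had 15 of 17 coagulation genes and 19 of 20 complement genes at negative values, where 48.8% of all genes were, with medians of −0.26 and −0.25 beside 0.01. Arm D had 16 of 17 and 15 of 20, where 51.8% of all genes were, with medians of −0.20 and −0.10 beside −0.01. No member passed an adjusted p of 0.05 in edgeR, where 0% of all genes passed in both, and no member reached an unadjusted p under 0.05 there, in DESeq2 or in limma-voom. At that level 4.42% of all genes were higher and 2.17% lower in arm G, and 4.22% and 2.12% in arm D. In arm G no member was without overlap, where 5.51% of all genes lay above and 5.05% below all normal libraries. In arm D 7 coagulation and 2 complement genes lay below all normal libraries, where 8.17% of all genes did, and these were F2, F7, F10, Pros1, Klkb1, F13b, Serpinc1, Cfb and C8b. The arm G medians were 0.11 and 0.09 without G.3, −0.49 and −0.39 without G.1 and −0.52 and −0.56 without G.4, and the complement median was −0.15 without N.1, so the sign of the arm G medians turned with G.3. For arm D the coagulation median stayed between −0.25 and −0.15 as libraries were left out, and the complement median between −0.17 and −0.07, the first of these without N.3. With the mitochondrial share as a covariate they were −0.15 and −0.03 for arm D and 0.05 and 0.05 for arm G.

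Between the arms, 10 of 17 coagulation genes and 15 of 20 complement genes were lower in arm G than in arm D, where 51% of all genes were, with medians of −0.04 and −0.13. None passed an adjusted p of 0.05 in edgeR, where 0% of all genes passed. None reached an unadjusted p under 0.05, where 2.45% of all genes were higher and 0.971% lower, and DESeq2 and limma-voom gave none at that level either. None was without overlap, where 4.08% of all genes were higher and 3.35% lower. The smallest p belonged to F7, at a log2 fold change of 0.36 ± 0.24 (edgeR adjusted p = 0.999), and G.3 overlapped with D.4. F12 had 0.29 ± 0.27 and F11 0.18 ± 0.28, and in the other direction Pros1 had −0.28 ± 0.38, Cpb2 −0.19 ± 0.30 and C1s −0.26 ± 0.47. The medians turned to 0.30 and 0.15 without G.3. They were −0.28 and −0.23 without G.1, −0.31 and −0.36 without G.4, −0.12 and −0.17 without D.1, 0.05 and −0.04 without D.4, and 0.05 and −0.06 without D.7. With the mitochondrial share as a covariate they were 0.22 and 0.14.

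Within arm G the 37 genes differed widely in how far G.3 lay below G.1 and G.4. All 37 were below the mean of the other libraries of the arm, 23 of them by more than 1 on the log2 scale, with a median log2 ratio of −1.22. Such ratios, for G.3 as for M.6 below, were computed for the 37 genes alone. No share of all genes stands beside these counts, and whether other genes fell as far was not tested. The steepest were C2 at −2.96, Serpind1 at −2.66, Serping1 at −2.64, Plg at −2.39, F9 at −2.33 and F5 at −2.26. At the other end Mbl2 was at −0.005, F11 at −0.17, F12 at −0.36 and F7 at −0.45, so genes of the same cascade lay far apart. In the model, M.6 lay below the mean of M.5 and M2.1 in 32 of 37 genes, by more than 1 in 11, with a median log2 ratio of −0.71. C2 at −2.68, Serpind1 at −2.09 and Plg at −2.06 were again the steepest, and F7 at 0.26, C4bpb at 0.15, F11 at 0.14, C5 at 0.10 and Proc at 0.09 were the 5 that were not lower. Over the 37 genes the ratios of G.3 and M.6 had a Pearson r of 0.745 and a Spearman rho of 0.679, a description across genes that share their libraries and are not independent. The 4 tested of 5 neutrophil markers had their highest means in these libraries, 2.74 log2 CPM in G.3 and 2.96 in M.6, and their lowest, −1.48, in M2.1. Summed, the neutrophil markers had 10.2 to 39.0 CPM in arm G, 8.59 to 11.4 in arm D, 1.25 to 35.6 in the model and 5.44 to 8.65 in the normal group, with Cxcr2 and Mmp8 at 0 in some library. The 3 tested erythroid markers were at 7.31 log2 CPM in G.3, 7.07 in M.6 and 7.20 in D.1, and lowest at 3.90 in N.2, and their sums were 519 to 1458 CPM in arm G, 360.2 to 1264 in arm D, 241 to 1247 in the model and 137 to 430.4 in the normal group. The part of these in the spread was not tested.

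**Figure D5:**
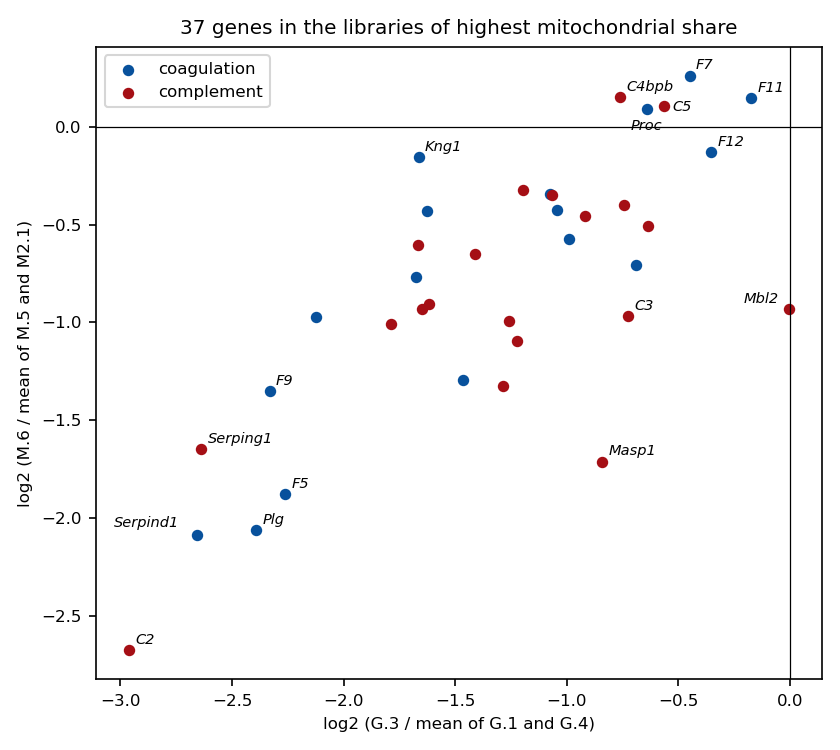
Log2 ratio of G.3 to the mean of G.1 and G.4 (horizontal axis) and of M.6 to the mean of M.5 and M2.1 (vertical axis) for 17 coagulation genes in blue and 20 complement genes in red. C2, Serpind1 and Plg lie at the lower left, F7, F11 and F12 at the upper right, and the points run between them with r = 0.745 over 37 genes.

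The genes also spread between M.5 and M2.1. The log2 ratio of M.5 to M2.1 was −2.41 for Masp1, −2.16 for C2 and −1.77 for F5, and 1.43 for C4bpb, 0.91 for F11, 0.73 for Proc and 0.72 for Serpinc1. The log2 ratios of N.3 to the mean of N.1 and N.2 followed those of M.5 to M2.1 over the 37 genes with a Pearson r of 0.899 and a Spearman rho of 0.867, with Masp1 at −1.64, C2 at −1.48 and F5 at −0.99 in the normal group. The same M.5 to M2.1 ratios had a Pearson r of 0.704 and a Spearman rho of 0.633 with the ratios of M.6 to these libraries. Both ratios are computed from M.5 and M2.1, and such shared terms can by themselves give a correlation. These 2 values therefore cannot say whether this spread is separate from the one above. These too are descriptions across genes, and M.5 and N.3 had a higher mitochondrial share than the libraries they are set against.

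The rest of each pathway did not share one course. Of 31 complement genes that are not among the 37, mostly receptors, regulators and components made by macrophages, 28 were tested. In the model against normal 21 of these 28 were negative, with a median of −0.33. C4a, which encodes the fourth component, averaged 113 ± 48.6 CPM in the model and 388 ± 112 CPM in the normal group (SD, n = 3), a log2 fold change of −1.77 ± 0.55 with an edgeR adjusted p of 0.866, and its reads may be shared with the near-identical C4b. Cpn1, a subunit of the carboxypeptidase that inactivates anaphylatoxins, had −0.96 ± 0.37. Cd46, a membrane regulator, was scarce, with a mean of 1.50 ± 0.418 CPM in the model and 0.281 ± 0.051 CPM in the normal group (SD, n = 3), and had 2.37 ± 0.85. Against the model, 21 of 28 were positive in arm G, with a median of 0.37, and 25 of 28 in arm D, with a median of 0.83. An unadjusted p under 0.05 was reached by 2 of them in arm G, where 1.2% of all genes were higher at that level, and by 10 in arm D, where 3.04% were, and none passed after adjustment. In arm D, Cfp, which encodes properdin, had 1.26 ± 0.33 and Itgb2, the beta chain of complement receptors, 1.33 ± 0.40 (edgeR adjusted p = 0.783). Itgb2 was at 20.3, 80.7 and 50.6 CPM in arm D and 25.2, 18.2 and 17.1 CPM in the model, with D.1 below M.5. In arm G, C4a had 1.58 ± 0.54 and Cfp 0.81 ± 0.33 (edgeR adjusted p = 0.9997). Of the listed genes, 4 also stand among the 12 Kupffer cell markers, all detected in every library, whose summed levels were 409 to 931 CPM in arm G, 626 to 1931 in arm D, 309 to 700.2 in the model and 639 to 874 in the normal group. Of these markers 12 of 12 were positive in arm G and in arm D against the model, with medians of 0.59 and 1.44, and 0 and 11 of them had an unadjusted p under 0.05. The Kupffer cell means were 5.015, 6.761 and 5.889 log2 CPM in arm D and 5.174, 3.967 and 4.502 in the model, with D.1 below M.5. In arm D 3 of the 12 markers lay above all model libraries. Of 9 sinusoidal endothelium markers 8 were tested and none was at 0. All 8 were positive in both arms, with medians of 0.36 and 0.71, and 0 and 4 had an unadjusted p under 0.05. Their sums were 251 to 367 CPM in arm G, 360.4 to 431 in arm D, 212 to 289.7 in the model and 303 to 363 in the normal group. The part of both lists in the complement values was not tested.

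Of 31 further genes of clotting and its control, 28 were tested, and in the model against normal they divided into 15 positive and 13 negative with a median of 0.02. Procr, the endothelial receptor of protein C, was at 2.06 ± 0.458 CPM in arm D and 9.95 ± 9.16 CPM in the model (SD, n = 3), a log2 fold change of −2.26 ± 0.82 (edgeR adjusted p = 0.783). The model libraries were at 9.48, 19.3 and 1.03 CPM and those of arm D at 2.48, 2.12 and 1.57 CPM. The value thus rests on M.5 and M.6, and M2.1 lies below arm D. Thbs1, a platelet and matrix protein, was at 7.01 ± 1.78 CPM in arm G and 2.38 ± 1.83 CPM in the model, a log2 fold change of 1.53 ± 0.52 (edgeR adjusted p = 0.9997). Habp2, a hyaluronan-binding protease of plasma, had −0.64 ± 0.29 in the model against normal and 0.65 ± 0.29 in arm D against the model. In arm G 17 of 28 and in arm D 19 of 28 were positive against the model, with medians of 0.06 and 0.16. Among 15 liver transcription factors and cytokine signals that act on these genes, 12 were negative in the model against normal, with a median of −0.49. Socs3, which acute phase cytokines induce, averaged 1.56 ± 0.445 CPM in the model and 5.76 ± 2.5 CPM in the normal group, a log2 fold change of −1.89 ± 0.61, and had 1.79 ± 0.61 in arm G and 1.72 ± 0.61 in arm D against the model. Onecut1, a hepatocyte factor, had 6.08, 8.91 and 9.27 CPM in the model and 48.0, 56.1 and 4.85 CPM in the normal group, so that its log2 fold change of −2.17 ± 0.72 rests on N.1 and N.2 and N.3 lies below the model. Its means in the arms were lower still, at 2.12 ± 0.562 CPM in arm G and 3.31 ± 2.64 CPM in arm D (SD, n = 3), with log2 fold changes of −1.94 ± 0.75 in arm G and −1.28 ± 0.72 in arm D against the model. Nr1h4, the bile acid receptor, had 0.56 ± 0.25 in the model against normal. Cebpa, a C/EBP factor, had −0.89 ± 0.36 in arm G against the model. None of these passed after adjustment.

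The authors' deposited table of normal over model, whose direction is the reverse of the one used above, lists a positive log2 fold change for 36 of the 37 genes. Of the 37, the authors' deposited table has 1 under an adjusted p of 0.05, of 53 such genes in all, and this was Kng1 at a log2 fold change of 1.05 and an adjusted p of 0.0469. The authors' deposited tables of arm G and of arm D over the model list positive values for 32 and 33 of the 37. None of the 37 is under an adjusted p of 0.05 there, of 1 such gene in all for arm G and 7 for arm D. The share of all genes with a positive value in the authors' deposited tables was not counted. There Kng1 stands at 1.21 for arm G and 1.09 for arm D, with the authors' adjusted p of 0.9999 and 0.357.

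Some of these counts may hold reads of other genes, since the sources used here do not say whether strand was used in counting. In RefSeq, 6 of the 37 genes overlap another protein-coding gene. They are Proc, Serpind1, which overlaps Pi4ka, C2, which overlaps Zbtb12, Masp1, which overlaps Rtp4, Masp2, which overlaps Tardbp, and C4bpb, which overlaps Pfkfb2.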

How the data were processed

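RNA was extracted with Trizol and libraries were made with a NEBNext Ultra kit, per the labels' protocols. The authors deposited 3 tables, and from these the columns of raw counts were used, which hold reads per gene, per the file headers. The deposited tables also hold the authors' log2 fold change and p-value per gene, which appear here by that name alone, and 36 per-sample columns of other values that were not used. DESeq2 and the mouse build mm9 are named in the submitters' processing notes. The sources used here do not give the aligner, the counting tool, the annotation or the use of strand. All 37 symbols matched rat RefSeq.

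Columns were matched to groups by their letter and not to single samples. D and G were taken as the didymin arms, and M2.1 was counted as a model library. Joining the 3 tables by gene name gave 1 matrix, and the model counts that they share did not differ. The test was the quasi-likelihood test of edgeR 4.0.16 (R 4.3.3) on 12355 genes that filterByExpr kept, with TMM scaling and 1 model over the 12 libraries that held 4 group means and left 8 residual degrees of freedom. The common biological coefficient of variation was 0.409. Adjusted p-values follow Benjamini and Hochberg over these genes, with 0.05 as threshold. The error of a fold change is a standard error worked back from the test, the absolute log2 fold change over the square root of the F value. The error of a group mean is the SD. A log2 CPM uses a prior count of 2. Groups were said not to overlap where every CPM of one lay beyond every CPM of the other. The gene test was checked on simulated data.

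The genes, the gene lists and the tests were chosen with earlier results of these data known. Every library is given for the 3 of the 37 genes that had the smallest p in either direction of model against normal, arm G or arm D against the model and arm G against arm D, and for F2, Serpinc1, Plg, C3, C9, Cfb and Mbl1 as examples of each role. Klkb1, C2 and Serping1 were added after their values were seen in comparisons where that rule did not name them, as were other genes' values across arms. Genes outside the 37 were named at up to 2 per direction and list. The alternatives were DESeq2 1.42.0, limma-voom of limma 3.58.1 with and without sample quality weights, DESeq2 size factors, no filter, the groups of a comparison alone, mitochondrial genes left out, the mitochondrial share as a covariate, and libraries left out.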

Additional observations from a re-analysis of the deposited data

How the results depend on the processing

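Across 21 alternatives, 12 of which left out 1 library, none of the 37 genes passed an adjusted p of 0.05 in any of the 6 comparisons. In most of these fits no gene at all passed. The most were called against normal, 941 genes in arm D and 47 in arm G by limma-voom with sample quality weights. DESeq2 called 84 and 51 there. With sample quality weights in limma-voom, 20 of them had an unadjusted p under 0.05 in the lower direction in model against normal, beside 14.8% of all genes lower and 14.3% higher, and their smallest adjusted p was 0.0711. In that comparison the coagulation median was −0.23 with the mitochondrial share as a covariate. The cause was not tested. The sign turned in single genes whose main values lay within their errors of 0. Without M.6 and G.3, F11 and Proc were at 0.033 and 0.012 in arm D against the model, Pros1 was at 0.16 in arm G against the model and 0.073 in arm G against arm D, and C1s was at 0.031 in arm G against arm D. In arm G against the model, Masp1 was at 0.29 in limma-voom, 1.01 with quality weights and 0.19 with the covariate, and Pros1 was at 0.33 with quality weights, 0.00101 with no filter and 0.000595 without mitochondrial genes. C1s was at 0.14 in arm G against arm D with the covariate. As libraries were left out in turn, values ran from −0.53 to 1.16 for Masp1 and −0.30 to 0.37 for Pros1 in arm G against the model, from −0.57 to 0.074 for Pros1 and −0.60 to 0.032 for C1s in arm G against arm D, and from −0.91 to 0.064 for Mbl2, −0.26 to 0.16 for F11 and −0.22 to 0.12 for Proc in arm D against the model. The medians of arm G against normal ran from −0.52 to 0.11 and from −0.56 to 0.09, those of arm G against arm D from −0.31 to 0.30 and from −0.36 to 0.15. With limma-voom they were −0.44 and −0.42 in arm G against normal, and with quality weights 0.48 and 0.50 in arm G against the model. In a comparison left with 1 group of 2 libraries, the spread was pooled over all groups. No paired analysis was possible because outside the normal group the numbers in the column names do not run as the replicate numbers of the labels do, so columns were not matched to labelled replicates, and no label says that a number is shared between groups.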
